A study of Mus musculus with 12 samples.

Results

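Folliculin (encoded by *Flcn*), its binding partners, the Rag GTPases on which it acts and the transcription factors that lie downstream of them were examined as a set of 10 genes. The set was chosen by name, with earlier results of these data known. It holds *Flcn*, the folliculin-interacting genes *Fnip1* and *Fnip2*, and the Rag GTPase genes *Rraga*, *Rragc* and *Rragd*. It also holds the transcription factor genes *Tfeb*, *Tfe3* and *Mitf*, and the transcription factor target *Gpnmb*. All 10 were found by symbol among the 54146 genes quantified. Their RNA was measured by sequencing in mouse embryonic stem cells (mESCs) of strain C57BL/6 and genotype Prdm10 F/F; Rosa26-CreERT2, in which hydroxytamoxifen (OHT) activates a Cre recombinase that is expressed from the Rosa26 locus and removes exon 5 of *Prdm10*. PRDM10 is a zinc finger transcription factor. Cells received 50 nM OHT or its solvent ethanol (EtOH) for 24 h, were kept in medium with serum and LIF, and were harvested on Day 2 or Day 4. The 4 groups of 3 libraries are Day 2 EtOH, Day 2 OHT, Day 4 EtOH and Day 4 OHT. All 4 groups carry the floxed alleles and the Cre transgene, so an effect of OHT or of Cre activity and an effect of the deletion cannot be told apart. The labels do not say whether the 3 libraries of a group came from separate cultures. The study's statement on statistics, made for its experiments in general, speaks of independent biological repeats. P-values measure the spread between these libraries.

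At the surface of the lysosome, a complex of folliculin with FNIP1 or FNIP2 stimulates GTP hydrolysis by RagC and RagD when amino acids are present, and a Rag dimer in this state brings TFEB and TFE3 to the kinase mTORC1. Phosphorylation by mTORC1 keeps these factors in the cytoplasm. When folliculin is missing, TFEB and TFE3 enter the nucleus and activate genes for lysosomes and autophagy through a DNA element that contains the E-box CACGTG. In mESCs, folliculin is known for its part in the exit from the pluripotent state, through the location of TFE3. An RNA measurement shows transcript amounts and not where these proteins are.

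Libraries held 35017667 to 41409992 expected counts, with means of 39139302 ± 3067782 (SD, n = 3) in Day 2 EtOH and 37708910 ± 2629591 in Day 2 OHT, which overlapped, and of 38007421 ± 493294 in Day 4 EtOH and 39852115 ± 1247752 in Day 4 OHT, which did not. The whole-gene count of *Prdm10* was higher in the OHT libraries, with mean normalised counts of 801 ± 29.4 (SD, n = 3) and 2173 ± 80.3 (SD, n = 3) in the EtOH and OHT libraries of Day 2, and of 869 ± 45.8 (SD, n = 3) and 2012 ± 67.5 (SD, n = 3) at Day 4. This count takes in all exons and so does not test whether exon 5 was removed. The study examined the deletion by other assays of DNA, transcript and protein, which were not analysed here. Directions are given for libraries labelled OHT relative to libraries labelled EtOH. Each of the 7 stem cell markers examined (among them *Pou5f1*, *Sox2* and *Nanog*) exceeded 1 TPM in every group, and their summed level was higher in OHT without overlap on both days. It was 2102 to 2141 TPM in Day 2 EtOH, 2184 to 2338 in Day 2 OHT, 2055 to 2317 in Day 4 EtOH and 2405 to 2497 in Day 4 OHT. Most of this sum was *Dppa5a*, with group means of 1267, 1422, 1223 and 1436 TPM in the same order. The mean of *Pou5f1* was lower in OHT on both days (386 and 374 TPM at Day 2, 460 and 439 at Day 4). That of *Sox2* was lower at Day 2 (176 and 152 TPM) and higher at Day 4 (185 and 204). In TPM, *Nanog* and *Esrrb* were higher in the mean on both days. In normalised counts *Nanog* did not differ detectably at Day 2. Its means were 14949 in EtOH and 14914 in OHT, which overlapped (adjusted p = 0.980 by DESeq2). The log2 fold change of *Dppa5a* counts at Day 2 was 0.09 (SE 0.03, adjusted p = 0.0633 by DESeq2). TPM is an abundance per transcript length, scaled to a fixed total within a library. Among markers of other cell types, *Adgre1* (macrophages) and *Tyr* (melanocytes) were at 0 TPM and *Col1a1* (fibroblasts) was between 0.153 and 0.207 TPM in the group means. Others exceeded 1 TPM in the mean of at least 1 group, namely *Cd68* (2.59 to 5.86), *Thy1* (0.777 to 2.43), *Pmel* (1.23 to 2.35), *Mlana* (0.600 to 1.49) and *Dab2* (0.817 to 1.12). The part of these markers in the results was not tested. In bulk RNA, fewer cells of a type and less RNA per cell cannot be told apart.

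Promoter sequence is shown first for *Flcn*, whose count differed most, for *Rragd* and *Fnip1*, which rose most at Day 4, and for 3 further members with a match to the letters searched. Sequences are from RefSeq on GRCm38.p6 and are written 5′ to 3′ along the strand of the gene. The first 4 run from 130 bases before to 20 bases after the annotated start site, and the last 2 are short stretches around a match. Capitals mark the fixed letters of the E-box CACGTG or, in either orientation, of the pattern TGGTNNNNNCC that is explained after them.
*Flcn*, chr11:59810020-59810169, minus strand: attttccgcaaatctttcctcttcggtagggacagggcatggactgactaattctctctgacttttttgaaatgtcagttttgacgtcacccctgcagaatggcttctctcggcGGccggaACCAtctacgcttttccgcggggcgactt
*Fnip1*, chr11:54438049-54438198, plus strand: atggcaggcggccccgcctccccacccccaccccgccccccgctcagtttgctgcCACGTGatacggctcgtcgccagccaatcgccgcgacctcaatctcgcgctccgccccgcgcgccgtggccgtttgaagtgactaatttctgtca
*Rragc*, chr4:123917303-123917452, plus strand: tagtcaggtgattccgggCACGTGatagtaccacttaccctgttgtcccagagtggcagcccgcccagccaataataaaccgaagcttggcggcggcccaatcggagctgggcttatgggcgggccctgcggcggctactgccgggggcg
*Rragd*, chr4:32982868-32983017, plus strand: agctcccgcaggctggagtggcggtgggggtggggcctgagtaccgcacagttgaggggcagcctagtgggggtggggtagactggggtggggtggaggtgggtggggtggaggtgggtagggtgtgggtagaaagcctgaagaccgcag
*Tfe3*, chrX:7762654-7762680, plus strand: ccccagtgTGGTcacttCCtgtggagt
*Tfeb*, chr17:47737958-47737980, plus strand: gacccctcTGGTttcagCCcctg

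The study mapped PRDM10 binding in these mESCs by chromatin immunoprecipitation with sequencing and found a motif enriched in the bound sites. Those data were not analysed here. The study also designed a pair of DNA probes for binding by PRDM10, WT and MUT, which differ at 8 of 28 bases (capitals).
WT: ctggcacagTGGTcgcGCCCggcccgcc
MUT: ctggcacagCAACcgcATTTggcccgcc
The bases of WT that MUT lacks give the pattern TGGTNNNGCCC. A search of both strands of the 15 promoter windows of the 10 members (300 bases each, 250 before and 50 after the start site) did not find it, and 1.45% of all 32851 RefSeq promoter windows hold it. A looser form chosen by hand, TGGTNNNNNCC, keeps the first 4 and the last 2 letters, is held once by WT and not by MUT, and matches wherever the stricter pattern does. It was found in *Flcn*, on the opposite strand and beginning 16 bases before the start site, in 1 of the *Tfeb* windows and in 1 of the *Tfe3* windows, against 13.8% of all windows. The E-box CACGTG, which reads the same on both strands, was found in *Fnip1* 75 bases and in *Rragc* 112 bases before the start site, against 7.15% of all windows. The longer forms TCACGTGA and TCACATGA, which hold an E-box with its flanking bases, were in no window of the members and in 0.974% and 0.986% of all windows. A match is a description of letters and shows neither a site in use nor a cause. The lack of a match does not show that PRDM10 does not bind.

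*Flcn* (ENSMUSG00000032633.12, chr11:59791408-59810016, minus strand, GRCm38) was the member with the most different counts between OHT and EtOH. At Day 2 its normalised counts (counts divided by a size factor per library) were 1762, 1759 and 1638 in the EtOH libraries and 349, 395 and 335 in the OHT libraries. The groups were far apart, and OHT libraries held 20.9% of the mean EtOH count, a log2 fold change of -2.25 (SE 0.08, adjusted p = 1.08e-167 by DESeq2). Counts at Day 4 were 1739, 1765 and 1819.9 in EtOH and 205, 198 and 214 in OHT, so that 11.6% remained. The log2 fold change of -3.11 (SE 0.08) had a DESeq2 adjusted p below the smallest number that the software stores. Only 52 genes (0.447% of the 11641 tested) were called lower by over 2-fold at Day 2 and 110 (0.952% of 11552) at Day 4, and *Flcn* was among them on both days. A gene was called where the adjusted p from DESeq2 was below 0.05 and its normalised counts averaged above 100.

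**Figure D1:**
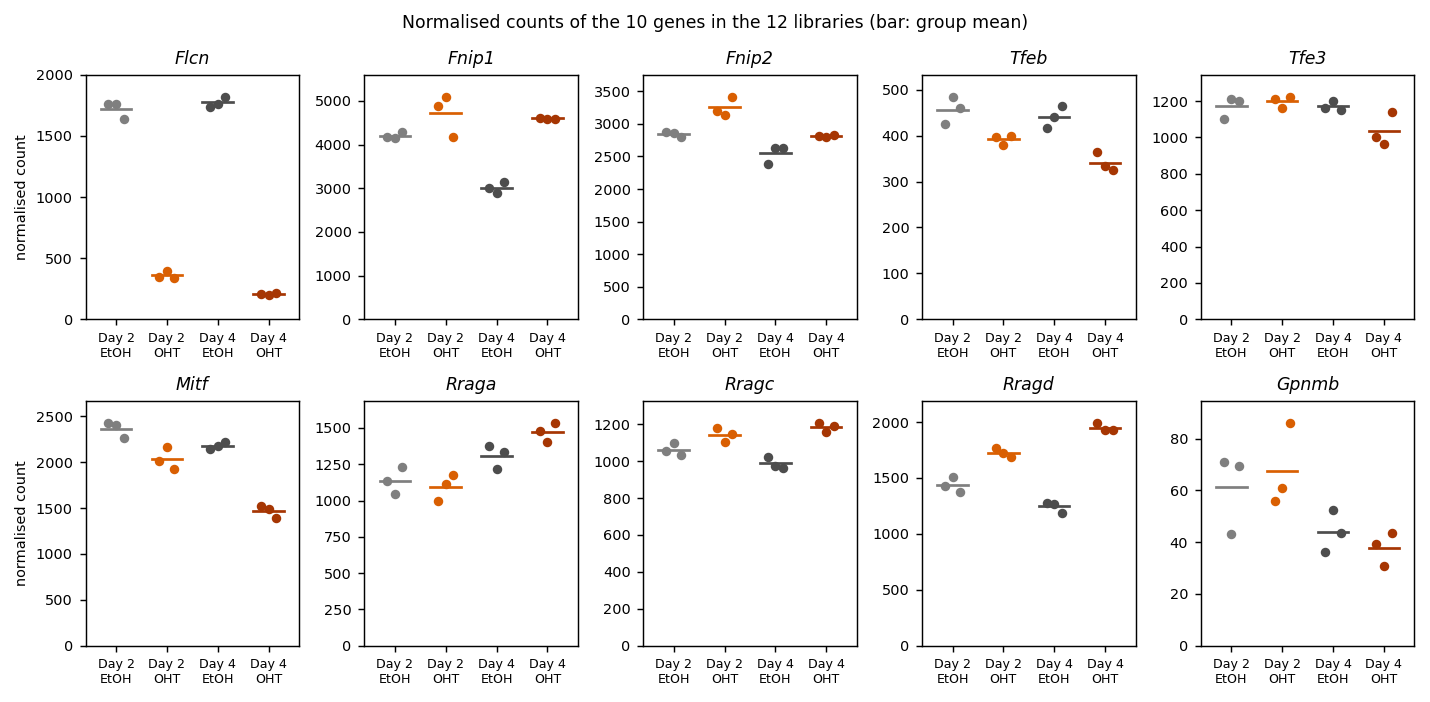
Normalised counts (linear axis from 0, scaled separately per gene) of the 10 genes in each of the 12 libraries, as 1 point per library with a line at the mean of the 3 libraries of a group. *Flcn* lies between 1638 and 1819.9 in all EtOH libraries and between 198 and 395 in all OHT libraries, while the other 9 genes differ far less.

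The count of *Flcn* fell further between the days in the OHT libraries and did not change detectably in the EtOH libraries. From Day 2 to Day 4 the OHT libraries dropped by 0.81 on the log2 scale (SE 0.12, adjusted p = 1.13e-09 by DESeq2), with no overlap of the 3 libraries of each day. In EtOH the difference between the days was 0.04 (SE 0.06, adjusted p = 0.643 by DESeq2), with a 95% interval from -0.07 to 0.15. The difference between the 2 OHT effects, tested by a term for treatment by day in a fit of all 12 libraries, was -0.85 (SE 0.11, adjusted p = 9.85e-14 by DESeq2). Per transcript length, *Flcn* stood at 13.1 ± 0.255 TPM (SD, n = 3) in Day 2 EtOH, 2.88 ± 0.297 in Day 2 OHT, 14.2 ± 0.185 in Day 4 EtOH and 1.67 ± 0.180 in Day 4 OHT. In TPM, unlike in normalised counts, the EtOH libraries of Day 4 were above those of Day 2 without overlap. No read of *Flcn*, or of any other member, was shared with another gene by the authors' quantification, since RSEM's posterior SD of the count was 0 in all libraries.

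Some genes followed a pattern close to that of *Flcn*. Likeness was measured as the root mean square difference of centred log2 normalised counts over the 12 libraries, among 11615 genes with a mean above 100. The 5 nearest were *Stmn2* (stathmin 2, a microtubule regulator, 0.16), *Srxn1* (sulfiredoxin, 0.16), *Lsr* (a lipoprotein receptor, 0.21), *Fam173b* (a mitochondrial methyltransferase, 0.22) and *Dut* (dUTPase, 0.23). *Stmn2* had mean normalised counts of 6270 in Day 2 EtOH, 989 in Day 2 OHT, 5441 in Day 4 EtOH and 681 in Day 4 OHT. *Dut* had 7779, 1893, 8467 and 1377.5 in the same order. With TPM in place of normalised counts, the same 5 genes were nearest.

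Of the 10 members, 9 exceeded the mean of 100 in every comparison, the exception being *Gpnmb*. At Day 2, 3 of the 9 were called higher and 2 lower in the OHT libraries, where 9.17% of the 11641 genes tested were called higher and 10.6% lower (19.8% either way). At Day 4, 5 were called higher and 4 lower, where 23.5% and 21.6% of 11552 genes were. All 9 were thus called at Day 4, a day on which 45.1% of genes were called either way, and the counts of the 2 labels did not overlap for 6 of 9 members at Day 2 and 9 of 9 at Day 4, against 45.6% and 63% of all genes. Apart from *Flcn*, the differences were modest, between -0.57 and 0.64 on the log2 scale.

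**Figure D2:**
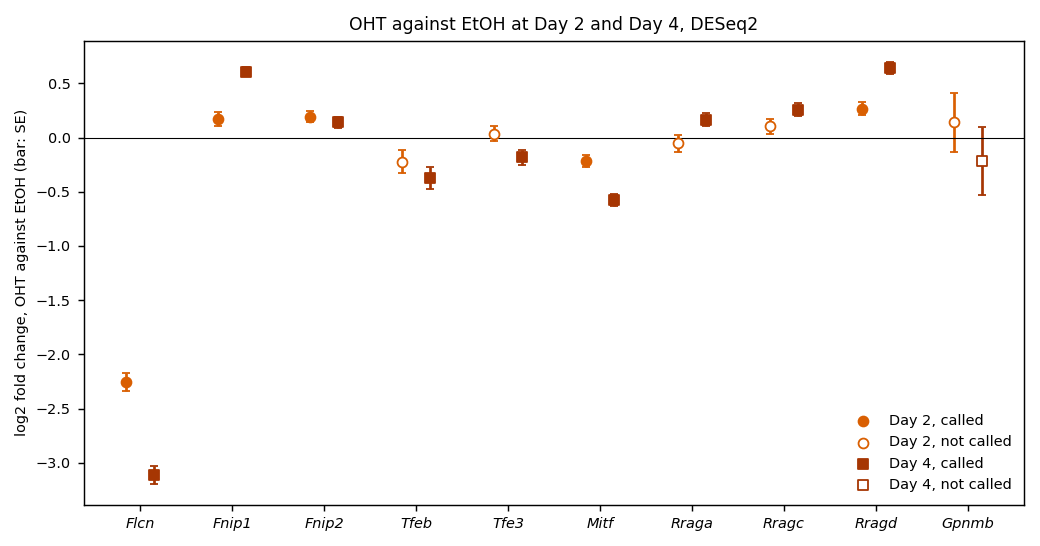
DESeq2 log2 fold changes of the OHT against the EtOH libraries (vertical axis, bars are standard errors) for the 10 genes at Day 2 (circles) and Day 4 (squares), filled where the gene was called and open where it was not. *Flcn* is at -2.25 and -3.11, *Fnip1* and *Rragd* are highest at Day 4 with 0.61 and 0.64, and *Mitf* is lowest of the others with -0.57.

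The partners of folliculin rose in the OHT libraries. FNIP1 and FNIP2 bind folliculin and are needed for its activity. *Fnip1* (chr11:54438199-54518235, plus strand) had normalised counts of 4164, 4141 and 4288 in Day 2 EtOH and 4889, 5092 and 4169 in Day 2 OHT. OHT replicate 3 lay among the EtOH libraries, and the log2 fold change was 0.17 (SE 0.06, adjusted p = 0.0436 by DESeq2). This call was lost with edgeR (adjusted p = 0.0674), with effective lengths as offsets (adjusted p = 0.0773 by DESeq2) and without any 1 of EtOH replicates 1 to 3 or OHT replicates 1 and 2, with log2 fold changes between 0.11 and 0.19 (adjusted p between 0.0875 and 0.329 by DESeq2). By Day 4 the counts were 3006, 2893 and 3138 in EtOH and 4612, 4583 and 4595 in OHT, which did not overlap. The log2 fold change of 0.61 (SE 0.04, adjusted p = 8.84e-46 by DESeq2) was larger than that at Day 2 by 0.44 (interaction, SE 0.08, adjusted p = 1.61e-06 by DESeq2).

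In the EtOH libraries *Fnip1* fell by 0.48 on the log2 scale between the days (SE 0.05, adjusted p = 9.26e-24 by DESeq2). In the OHT libraries the difference was -0.04 (SE 0.06, adjusted p = 0.699 by DESeq2, 95% interval from -0.15 to 0.08), and without Day 2 OHT replicate 3 it was called (-0.12, adjusted p = 0.0123 by DESeq2). The Day 4 OHT counts were thus within the range of those of Day 2 OHT, and the lowest counts of *Fnip1* were those of the Day 4 EtOH libraries.

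*Fnip2* (chr3:79455974-79567796, minus strand), its paralog, had counts of 2878, 2857 and 2793 in Day 2 EtOH and 3199.6, 3141 and 3415 in Day 2 OHT. The log2 fold change was 0.19 (SE 0.05, adjusted p = 0.00217 by DESeq2). At Day 4 the counts of 2383, 2622 and 2636 in EtOH and 2816, 2794 and 2826 in OHT again did not overlap, with a log2 fold change of 0.14 (SE 0.05, adjusted p = 0.0156 by DESeq2). That call was lost without EtOH replicate 1 (0.10, adjusted p = 0.111 by DESeq2) or without any 1 of the OHT replicates (0.14 to 0.15, DESeq2 adjusted p from 0.058 to 0.0765). The interaction for *Fnip2* was -0.05 (SE 0.07, adjusted p = 0.653 by DESeq2, 95% interval from -0.18 to 0.08). *Fnip2* fell between the days under both labels. It fell by 0.16 in EtOH (SE 0.05, adjusted p = 0.00917 by DESeq2) and fell by 0.21 in OHT (SE 0.05, adjusted p = 9.23e-05 by DESeq2). The EtOH call was lost without Day 2 EtOH replicates 1 or 2 or Day 4 EtOH replicate 1 (-0.16 to -0.11).

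As *Flcn* was lower and its partners were higher, the ratio of their transcripts differed widely. The summed TPM of *Fnip1* and *Fnip2* over that of *Flcn* was 1.75, 1.71 and 1.88 in Day 2 EtOH and 10.8, 9.41 and 9.56 in Day 2 OHT. At Day 4 it was 1.38, 1.41 and 1.42 in EtOH and between 14.4 and 17.6 in OHT. An exact permutation test of 3 against 3 libraries cannot give a two-sided p below 0.1, so the ratios are given as values. *Fnip1* over *Fnip2* was 1.34 ± 0.0912 (SD, n = 3) in Day 4 EtOH and 1.83 ± 0.0129 in Day 4 OHT, without overlap, and overlapped between the labels at Day 2 (1.67 ± 0.0250 and 1.58 ± 0.192).

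The Rag GTPases form dimers of RagA or RagB with RagC or RagD. *Rragd* (chr4:32983037-33022180, plus strand), which is itself known as a target of the TFE factors, rose on both days. Its counts were 1429, 1505 and 1372 in Day 2 EtOH and 1768, 1723 and 1688 in Day 2 OHT, a log2 fold change of 0.27 (SE 0.06, adjusted p = 0.000338 by DESeq2). At Day 4 they were 1279, 1267 and 1191 in EtOH and 1991, 1925.5 and 1929.7 in OHT, a log2 fold change of 0.64 (SE 0.06, adjusted p = 7.80e-29 by DESeq2). The OHT libraries were above the EtOH libraries of the same day in all cases, and the effects of the 2 days differed by 0.38 (interaction, SE 0.07, adjusted p = 2.80e-06 by DESeq2). Between the days *Rragd* fell by 0.21 in EtOH (SE 0.06, adjusted p = 0.00549 by DESeq2) and was higher by 0.18 in OHT (SE 0.05, adjusted p = 0.00366 by DESeq2). The fall in EtOH was not called without Day 2 EtOH replicate 2 (-0.17) or Day 4 EtOH replicate 3 (-0.18).

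*Rragc* (chr4:123917446-123936997, plus strand) encodes the other GTPase on which folliculin acts. Its counts were 1058, 1096 and 1036 in Day 2 EtOH and 1179, 1106 and 1148 in Day 2 OHT, with a log2 fold change of 0.11 (SE 0.07, adjusted p = 0.328 by DESeq2) that did not pass the test. At Day 4 the counts of 1025, 973 and 965 in EtOH and 1206, 1156 and 1189 in OHT differed by 0.26 (SE 0.06, adjusted p = 0.000327 by DESeq2). The interaction was 0.16 (SE 0.08, adjusted p = 0.146 by DESeq2), and it passed the test with edgeR (0.16, adjusted p = 0.0402). The ratio of *Rragd* to *Rragc* in TPM was 0.689 ± 0.00737 (SD, n = 3) in Day 2 EtOH, 0.794 ± 0.0310 in Day 2 OHT, 0.646 ± 0.0177 in Day 4 EtOH and 0.848 ± 0.0172 in Day 4 OHT, with no overlap between the labels on either day.

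*Rraga* (chr4:86575668-86577285, plus strand) encodes RagA. At Day 2 its counts overlapped between EtOH (1133, 1043 and 1234) and OHT (994, 1114 and 1175), and the log2 fold change was -0.05 (SE 0.08, adjusted p = 0.742 by DESeq2). At Day 4 they were 1374, 1216 and 1336 in EtOH and 1477, 1404 and 1534 in OHT, 0.17 higher on the log2 scale (SE 0.06, adjusted p = 0.0286 by DESeq2). The Day 4 call was lost without EtOH replicate 2 (0.12), OHT replicate 1 (0.16) or OHT replicate 3 (0.14), and in a fit over all 12 libraries (adjusted p = 0.0613 by DESeq2). *Rraga* rose between the days in OHT, by 0.43 (SE 0.07, adjusted p = 1.17e-08 by DESeq2), and by 0.20 in EtOH (SE 0.07, adjusted p = 0.0246 by DESeq2), where the counts of the days overlapped and the call was lost without Day 2 EtOH replicates 1 (0.20) or 2 (0.14) or Day 4 EtOH replicates 1 (0.17) or 3 (0.19). Its interaction of 0.22 (SE 0.11, adjusted p = 0.113 by DESeq2) passed the test only without Day 2 EtOH replicate 2 (0.28) or Day 2 OHT replicate 3 (0.28).

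The transcription factor genes were lower in the OHT libraries at Day 4, by differing amounts. *Mitf* (chr6:97807052-98021349, plus strand), best known as the regulator of the melanocyte lineage, had counts of 2426, 2408 and 2264 in Day 2 EtOH and 2015, 2168 and 1922 in Day 2 OHT. The log2 fold change was -0.22 (SE 0.06, adjusted p = 0.00368 by DESeq2), with an adjusted p of 0.0559 or 0.0558 without EtOH replicate 1 or 2. At Day 4 the counts of 2139.7, 2172 and 2224 in EtOH and 1524, 1489.6 and 1390.3 in OHT were farther apart, with a log2 fold change of -0.57 (SE 0.05, adjusted p = 4.25e-24 by DESeq2). The interaction was -0.35 (SE 0.08, adjusted p = 4.96e-05 by DESeq2). Between the days in OHT *Mitf* fell by 0.47 (SE 0.06, adjusted p = 6.89e-13 by DESeq2), and in EtOH the difference was -0.12 (SE 0.05, adjusted p = 0.0565 by DESeq2). The EtOH difference passed the test with edgeR (-0.11, adjusted p = 0.0369), with effective lengths as offsets (-0.15, adjusted p = 0.0463 by DESeq2) and without Day 2 EtOH replicate 3 (-0.15, adjusted p = 0.0318 by DESeq2).

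*Tfeb* (chr17:47737030-47792419, plus strand), a master regulator of lysosomal genes, had the lowest counts of the transcription factors. They were 426, 484 and 460.2 in Day 2 EtOH and 396, 380.1 and 399.7 in Day 2 OHT, a log2 fold change of -0.22 (SE 0.10, adjusted p = 0.134 by DESeq2) that did not pass the test although the groups did not overlap. At Day 4 the counts were 417, 439.7 and 465 in EtOH and 363, 334 and 325 in OHT, with a log2 fold change of -0.37 (SE 0.10, adjusted p = 0.00178 by DESeq2). Its interaction was -0.15 (SE 0.13, adjusted p = 0.451 by DESeq2).

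*Tfe3* (chrX:7762560-7775202, plus strand) changed least of the transcription factors. At Day 2 its counts overlapped between EtOH (1101, 1209 and 1203) and OHT (1211, 1161 and 1223), with a log2 fold change of 0.03 (SE 0.07, adjusted p = 0.815 by DESeq2) and a 95% interval from -0.10 to 0.17. At Day 4 they were 1164, 1202 and 1153 in EtOH and 1003, 965 and 1140.1 in OHT, where the log2 fold change was -0.18 (SE 0.07, adjusted p = 0.0341 by DESeq2). This was lost without any 1 of EtOH replicates 1 to 3 or OHT replicates 1 and 2 (-0.19 to -0.13, DESeq2 adjusted p from 0.0639 to 0.239) and with effective lengths as offsets (adjusted p = 0.0601 by DESeq2). *Tfe3* fell by 0.21 between the days in OHT (SE 0.07, adjusted p = 0.0149 by DESeq2), which was lost without Day 2 OHT replicates 1 or 3 or Day 4 OHT replicates 1 or 2 (-0.20 to -0.16) and with effective lengths as offsets (-0.14, adjusted p = 0.137 by DESeq2). The interaction was -0.21 (SE 0.09, adjusted p = 0.0829 by DESeq2), and it passed the test with total counts as scaling (-0.26, adjusted p = 0.0345 by DESeq2) and without Day 4 OHT replicate 3 (-0.28, adjusted p = 0.012 by DESeq2).

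The summed level of *Tfeb*, *Tfe3* and *Mitf* was 29.0 ± 1.23 TPM (SD, n = 3) in Day 2 EtOH and 28.3 ± 1.66 in Day 2 OHT, which overlapped, and 30.4 ± 1.27 in Day 4 EtOH and 22.9 ± 0.849 in Day 4 OHT, which did not. *Mitf* made up a mean of 44.2% of this sum in Day 4 EtOH and 38.9% in Day 4 OHT, while the share of *Tfe3* was 35.3% ± 1.90 (SD, n = 3) and 39.9% ± 2.14. The share of *Tfeb* overlapped between the labels on both days. At Day 2 the 2 measures differed for *Tfeb* and *Mitf*. Their normalised counts in OHT were 85.8% and 86.0% of the EtOH mean, without overlap, while their TPM overlapped between the labels.

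*Gpnmb* (chr6:49036546-49070929, plus strand) encodes a lysosomal glycoprotein that is widely used as a readout of TFE activity in kidney and other tissues. It was scarcely expressed here. Its counts were 70.9, 43.3 and 69.5 in Day 2 EtOH, 55.9, 61.0 and 86.0 in Day 2 OHT, 36.1, 52.4 and 43.5 in Day 4 EtOH and 39.5, 30.6 and 43.7 in Day 4 OHT. The groups overlapped on both days, and its log2 fold changes of 0.14 (SE 0.27, adjusted p = 0.806 by DESeq2) at Day 2 and -0.22 (SE 0.32, adjusted p = 0.667 by DESeq2) at Day 4 had 95% intervals from -0.39 to 0.68 and from -0.83 to 0.40. A change as large as that of *Rragd* was therefore not detectable in this gene at Day 2 at this depth. Between the days in OHT its log2 difference was -0.83 (SE 0.29, adjusted p = 0.0141 by DESeq2), below the mean of 100 that a call required. That adjusted p was 0.0745 with effective lengths as offsets, 0.163 without Day 2 OHT replicate 3 and 0.0915 without Day 4 OHT replicate 2.

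Across the time comparisons, 1 of 9 members was called higher and 3 lower at Day 4 against Day 2 in EtOH, where 20.6% and 20.5% of 11570 genes were. In OHT the counts were 2 higher and 4 lower, where 30.8% and 23% of 11633 genes were. The interaction of treatment and day was called for 2 members in the higher and 2 in the lower direction (*Fnip1*, *Rragd*, *Flcn* and *Mitf*), where 18.7% and 13.6% of 11612 genes were called (32.3% either way). Each of these 4 had the larger effect at Day 4.

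Between genes, levels were compared per transcript length, as TPM. In Day 2 EtOH the order was *Rraga* (16.4 ± 1.59 TPM, SD, n = 3), *Fnip1* (14.6 ± 0.548), *Mitf* (13.6 ± 0.512), *Flcn* (13.1 ± 0.255), *Rragc* (9.52 ± 0.368), *Tfe3* (9.48 ± 0.251), *Fnip2* (8.74 ± 0.357), *Rragd* (6.56 ± 0.256), *Tfeb* (5.96 ± 0.687) and *Gpnmb* (0.470 ± 0.0557). Neighbours among the first 4 overlapped in their libraries, as did *Rragc* and *Tfe3*, while the other neighbours did not. In Day 2 OHT *Flcn* had moved from rank 4 to rank 9 and *Fnip1* (17.4 ± 2.24 TPM) led, overlapping *Rraga* (16.7 ± 0.979). *Flcn* then lay below *Tfeb* (5.86 ± 0.334 TPM) without overlap, and above *Gpnmb* (0.527 ± 0.231 TPM) alone.

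In Day 4 EtOH *Rraga* led with 20.7 TPM in the mean, followed by *Flcn* at rank 2 with no overlap on either side. In Day 4 OHT *Flcn* was again at rank 9. *Rraga* (a mean of 22.8 TPM) and *Fnip1* (17.1 ± 0.290 TPM, SD, n = 3) led, and *Rragd*, at rank 9 in Day 4 EtOH (6.22 ± 0.367 TPM), was at rank 4 (9.53 ± 0.215). *Rragd*, *Fnip2*, *Tfe3* and *Mitf* overlapped as neighbours there, between 8.91 and 9.53 TPM in the mean.

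**Figure D3:**
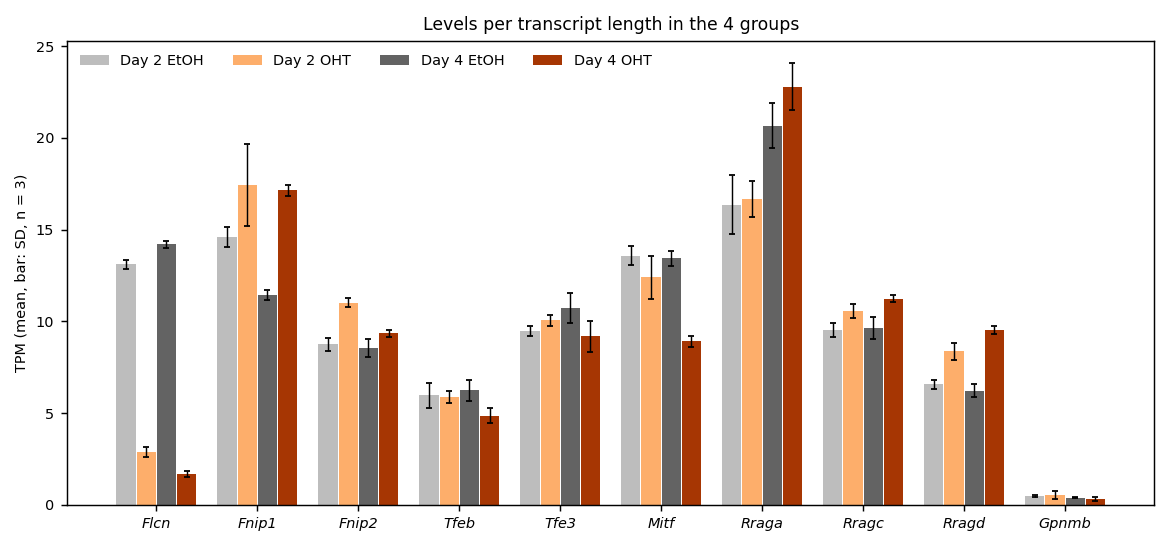
Levels of the 10 genes in TPM (bars from 0, mean of 3 libraries, error bars SD) in Day 2 EtOH, Day 2 OHT, Day 4 EtOH and Day 4 OHT. *Flcn* is among the more abundant of the genes in EtOH (13.1 and 14.2 TPM) and ranks 9 of 10 in OHT (2.88 and 1.67 TPM), and *Gpnmb* is under 1 TPM throughout.

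The effective length that RSEM gives a gene depends on which of its transcripts were found. It did not overlap between the labels for 1 of 10 members at Day 2 and for 0 at Day 4, where the share of all genes was 13.3% and 14.9%. The member was *Rragc*, with 2348 ± 26.6 bases (SD, n = 3) in Day 2 EtOH and 2416.5 ± 35.2 in Day 2 OHT (exact permutation test, two-sided, p = 0.1, the smallest possible, and 0.941 after Benjamini-Hochberg adjustment over the 20 tests). For *Flcn* the lengths overlapped on both days.

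The other genes of the pathway were taken from 5 lists written from general knowledge, with earlier results of these data known. Ragulator and its companions anchor the Rag GTPases to the lysosome. Of 7 genes, 0 were called higher and 2 lower at Day 2, and 1 higher and 2 lower at Day 4, with medians of -0.01 and -0.03 on the log2 scale, where all genes tested had medians of -0.03 and 0.01. Of all genes, 9.17% were called higher and 10.6% lower at Day 2, and 23.5% and 21.6% at Day 4. *Rragb*, a Rag GTPase gene placed in this list, encodes RagB, the alternative to RagA. It rose at Day 4 by 0.26 (SE 0.07, adjusted p = 0.000512 by DESeq2). The Ragulator genes *Lamtor5* and *Lamtor3* fell by 0.16 and 0.15 on the log2 scale at Day 4 (adjusted p = 0.0331 and 0.0456 by DESeq2), and *Lamtor3* also at Day 2 (-0.20, adjusted p = 0.0218 by DESeq2). The other gene lower at Day 2 was *Lamtor2* (-0.22), named after its values were seen.

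GATOR1 restrains the Rag dimers, GATOR2 opposes GATOR1, and KICSTOR places GATOR1 on the lysosome. Of their 12 genes, 2 were called higher and 0 lower at Day 2 (median -0.05), and 3 higher and 1 lower at Day 4 (median -0.01), where 19.8% and 45.1% of all genes were called either way. Of the genes called at Day 2, *Depdc5* (0.20), named after its values were seen, was at -0.06 at Day 4 and not called. At Day 4 *Itfg2*, *Mios* and *Wdr59* rose by 0.21, 0.14 and 0.14, and *Seh1l* fell by 0.12 on the log2 scale (DESeq2 adjusted p from 0.00353 to 0.0299).

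Among 15 genes of mTORC1 and its upstream regulators, 4 were called higher and 4 lower at Day 2, and 3 higher and 5 lower at Day 4, of the 14 then above the mean of 100, beside 19.8% and 45.1% of all genes called either way. The medians were -0.02 and -0.06. *Mlst8*, a core subunit of mTORC1 and mTORC2, stood apart with a mean normalised count of 606 in Day 2 EtOH, 165 in Day 2 OHT, 669 in Day 4 EtOH and 145 in Day 4 OHT. Its log2 fold changes were -1.88 (SE 0.11, adjusted p = 3.89e-58 by DESeq2) and -2.21 (SE 0.11, adjusted p = 1.10e-80 by DESeq2). The other genes named by rule are inhibitors or sensors that act on mTORC1. *Ddit4* fell by 0.29 and 0.66 on the log2 scale at Day 2 and Day 4. *Sesn2* fell by 0.26 and 0.43, and *Castor1* fell by 0.21 and 0.37, so that all 3 were called on both days. *Ddit4* had mean normalised counts of 3651 and 2981 in Day 2 EtOH and OHT, and 787 and 498 at Day 4. Among genes named after their values were seen, *Tsc2* was called higher on both days (0.26 and 0.20), while *Rptor* was called higher at Day 2 (0.24) and lower at Day 4 (-0.18).

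C9orf72, SMCR8 and WDR41 form a lysosomal complex related in structure to that of folliculin and FNIP. *Smcr8* rose by 0.28 at Day 2 (SE 0.05, adjusted p = 1.81e-06 by DESeq2) and by 0.26 at Day 4 (SE 0.04, adjusted p = 6.07e-08 by DESeq2). *C9orf72* was called lower at Day 2 (-0.23) and not at Day 4 (-0.15), and *Wdr41* was called on neither day, with -0.06 and -0.01.

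The list of TFE targets held 30 genes known to be activated by TFEB or TFE3, most but not all of them genes of lysosomes and autophagy. Of the 26 tested at Day 2, 13 were called higher and 2 lower, with a median of 0.16 beside -0.03 for all genes tested, of which 9.17% were called higher and 10.6% lower. Of the 27 tested at Day 4, 23 were called higher and 2 lower, with a median of 0.42 beside 0.01 and with 23.5% and 21.6% of all genes called. For the interaction, 15 of 26 were called in the higher direction and 0 in the lower, with a median of 0.19 beside 0.03 and with 18.7% and 13.6% of all genes called. In EtOH alone, 1 of 26 was called higher and 12 lower at Day 4 against Day 2 (median -0.12), beside 20.6% and 20.5% of all genes. In OHT 13 were higher and 5 lower (median 0.13), beside 30.8% and 23%.

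The genes of this list named by rule are lysosomal hydrolases and an enzyme of amino sugar breakdown. *Hexa* (hexosaminidase A) had mean normalised counts of 919 in Day 2 EtOH, 1216 in Day 2 OHT, 693 in Day 4 EtOH and 1727 in Day 4 OHT, with log2 fold changes of 0.40 (SE 0.07, adjusted p = 2.20e-06 by DESeq2) and 1.31 (SE 0.07, adjusted p = 2.00e-87 by DESeq2). *Ctsa* (cathepsin A) rose by 0.34 at Day 2 and 0.82 at Day 4, and *Amdhd2* by 0.75 at Day 4 after 0.18 at Day 2, which was not called (adjusted p = 0.123 by DESeq2). *Asah1* (acid ceramidase) moved in the other direction, by -0.93 at Day 2 (SE 0.05, adjusted p = 7.84e-66 by DESeq2) and -0.83 at Day 4 (SE 0.04, adjusted p = 8.45e-75 by DESeq2). The other gene lower on both days was *Gabarapl1* (-0.22 and -0.26), an autophagy gene named after its values were seen. The summed level of 6 macrophage markers was also higher in OHT on both days. It was 2.66 to 2.82 TPM in Day 2 EtOH, 4.35 to 4.84 in Day 2 OHT, 3.11 to 3.79 in Day 4 EtOH and 5.65 to 6.54 in Day 4 OHT. In EtOH this sum was higher at Day 4 than at Day 2. Of the 6 markers only *Cd68*, which also encodes a lysosomal protein, exceeded 1 TPM, with group means of 2.59, 4.38, 3.26 and 5.86 TPM. *Ptprc* was at most 0.0167 TPM in the group means. Whether these markers bear on the values of the TFE targets was not tested.

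**Figure D4:**
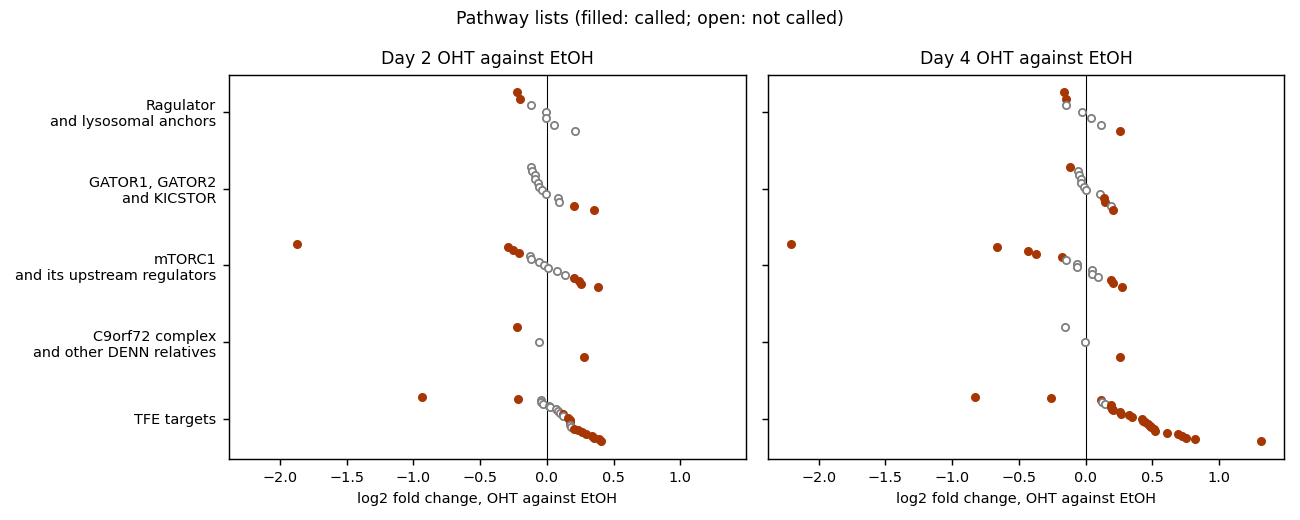
DESeq2 log2 fold changes of the OHT against the EtOH libraries (horizontal axis) at Day 2 (left) and Day 4 (right) for the genes of 5 pathway lists with a mean normalised count above 100, as 1 point per gene, filled where called. Most TFE targets lie above 0 at Day 4, where 23 of 27 were called higher, *Asah1* (-0.83) is their lowest, and *Mlst8* (-1.88 and -2.21) is the lowest of all.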

How the data were processed

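RNA-seq was analysed in 12 libraries, grouped by their titles. Per the labels and the study's methods, total RNA was depleted of rRNA and sequenced as stranded paired reads. Reads of each library were aligned by the authors with STAR (version 2.6.0c; GRCm38.p6) and assigned to GENCODE genes with RSEM. The deposited expected counts are estimates of read pairs per gene. The deposited TPM values come from the same step. The authors' DESeq2 tables (version 1.22.2) hold fold changes and p-values and were used only to pair identifiers with symbols (54079 genes). Gene positions are from GENCODE on GRCm38, promoters from RefSeq.

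Expected counts were rounded and tested over all genes with DESeq2 (version 1.42.0, R 4.3.3; Wald test, median-of-ratios factors, independent filtering, Benjamini-Hochberg adjustment), each comparison with its own libraries and the interaction with all 12. A gene was called with an adjusted p below 0.05 if its mean normalised count exceeded 100. Printed normalised counts use size factors over all 12 libraries. Likeness used log2(normalised count + 0.5). The tests of OHT against EtOH on each day were checked on simulated counts, with the same spread set for all genes. The interaction and the comparisons between the days were not checked in this way. TPM was described without tests. Libraries held 35017667 to 41409992 expected counts, and counting error weighs more for genes near the minimum mean than for genes with high counts. Reads were amplified without molecular identifiers, so errors are SDs over libraries.

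The members and lists were chosen with earlier results of these data known. All members were named, and from each list up to 4 genes called at Day 4 with the largest absolute log2 fold change. Likeness was searched for *Flcn* and *Gpnmb*, with 5 genes each. The values of 1 pathway gene are not reported here. Alternatives were edgeR (version 4.0.16), TMM factors, total counts, effective lengths as offsets, a replicate block, all 12 libraries in 1 fit, no minimum mean, low genes removed before adjustment, an adjusted p below 0.01, and each library left out.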

Additional observations from a re-analysis of the deposited data

Results flagged for a closer look

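The effect of OHT differed between the days for 4 of the 10 genes, by the interaction of treatment and day in DESeq2 over all 12 libraries, where 32.3% of all genes tested were called. Day 4 minus Day 2, the difference was -0.85 for *Flcn*, 0.44 for *Fnip1*, -0.35 for *Mitf* and 0.38 for *Rragd* on the log2 scale. In counts of *Flcn* the OHT libraries fell between the days and the EtOH libraries did not change detectably. In counts of *Fnip1* the EtOH libraries fell and the OHT libraries did not change detectably, except without Day 2 OHT replicate 3 (-0.12).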

How the results depend on the processing

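With 1 library left out, 313 of the members' fitted values kept their direction and side of the threshold, 34 lost the call, 5 gained it and 8 changed sign, and under the other alternatives the numbers were 269, 13, 6 and 2. None that changed sign had passed the test. *Flcn* was between -2.33 and -2.21 at Day 2 and between -3.14 and -3.06 at Day 4 in all fits run. The changes of sign with 1 library left out were for *Tfe3* (-0.013 to 0.059), *Rraga* (-0.11 to 0.011) and *Gpnmb* (-0.064 to 0.26) at Day 2, and between the days for *Tfe3* in EtOH (-0.043 to 0.025) and *Fnip1* in OHT (-0.12 to 0.024). Between the days in EtOH, *Flcn* was at -0.018 with effective lengths and *Tfe3* at -0.00083 with TMM factors. The cause was not tested.

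Same-numbered libraries correlated between -0.03 and 0.11 at Day 2 and between -0.25 and 0.16 at Day 4 in their deviations from group means, so the numbers were not taken to pair them. Differently numbered libraries of the 2 labels correlated between -0.34 and 0.30 at Day 2 and between -0.31 and 0.42 at Day 4. Whether libraries with other numbers share a batch was not tested. With a replicate block, 3 members were called higher at Day 4 (5 without) and 0 higher between the days in EtOH (1 without). Under it *Fnip1* at Day 2 (DESeq2 adjusted p = 0.124), *Fnip2* (0.0681), *Rraga* (0.0935) and *Tfe3* (0.123) at Day 4, *Rraga* between the days in EtOH (0.0582) and *Tfe3* in OHT (0.053) were not called. The block left 4 pathway genes called lower at Day 2, where 9 were called without it. An adjusted p below 0.01 gave 3 and 0 members in the same places and 5 pathway genes lower at Day 2. With total counts, 5 pathway genes were lower at Day 2, 8 (5 in the fit as reported) for the interaction, and 5 (3) were higher between the days in EtOH, where edgeR gave 9 and a fit of all 12 libraries 5. Leaving out 1 library gave 1 to 2 members lower at Day 2, 3 to 5 higher at Day 4, 0 to 1 higher and 1 to 4 lower between the days in EtOH, 5 to 8 pathway genes lower at Day 2 and 3 to 5 higher between the days in EtOH. Fits without a library of a group rest on the spread of the remaining libraries. Of all genes called, 46.3% were higher at Day 2 (68.5% with total counts) and 58.0% for the interaction (44.2%), and no scaling moved the median of all genes by over 0.05 on the log2 scale. Counts near the minimum mean limit *Gpnmb*.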

Other observations

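Under the measure of likeness used for *Flcn*, the 5 genes nearest to *Gpnmb* over the 12 libraries, of 11616 searched, were *Ppard* (root mean square difference of 0.21 on the log2 scale), *Rps6kl1* (0.22), *Smad3* (0.23), *Rras* (0.23) and *Marveld2* (0.23). With TPM in place of normalised counts, 2 of these 5 remained among the nearest. *Ppard* had mean normalised counts of 149 in Day 2 EtOH, 186 in Day 2 OHT, 119.5 in Day 4 EtOH and 101 in Day 4 OHT. The summed level of 6 fibroblast markers was 2.58 to 3.51 TPM in the libraries of the other groups and 1.16 to 1.60 TPM in Day 4 OHT, mostly from *Thy1* (2.18 TPM in Day 4 EtOH and 0.777 TPM in Day 4 OHT in the mean). Melanocyte markers, mostly *Pmel* and *Mlana*, summed to between 2.10 and 4.27 TPM and primitive endoderm markers to between 1.82 and 2.74 TPM over all libraries.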
